A study of Mus musculus with 12 samples.

Results

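The genes described here are 10 that cells switch on quickly after calcium entry or depolarization: the 4 EGR transcription factors (Egr1, Egr2, Egr3 and Egr4), the 3 NR4A nuclear receptors (Nr4a1, Nr4a2 and Nr4a3), and Arc, Ier2 and Npas4. They were taken by symbol from the deposited count files, which list 24421 gene symbols, and all 10 were found. Of these, 9 were among the 13102 genes with enough reads to be tested, and Egr3 was not. Their messenger RNA was measured in Min6, a mouse insulinoma line used as a model of the pancreatic beta cell. Every library came from this 1 line, labelled wild type, 48 h after infection with an adenovirus and 24 h into 0.3 mM palmitate (PA), a saturated fatty acid. In 6 libraries the adenovirus carried a control hairpin (sh-ctrl, titled GFP) and in 6 a hairpin against Il22ra1, a subunit of the interleukin-22 receptor (sh-Il22ra1, titled shRNA). No library without virus or without palmitate is compared here, so the levels are those of infected, palmitate-treated cells. Nothing in the labels tells separate cultures from repeats of 1 culture within a group, and the p-values below therefore cover only the sample-to-sample spread, part or all of which may be technical.

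These 10 genes belong to the immediate-early class, whose transcription starts from factors already present in the cell. In beta cells glucose closes the ATP-sensitive potassium channel, the membrane depolarizes and calcium enters. Calcium then acts on transcription through calmodulin kinases and CREB with its CRTC coactivators, through calcineurin with NFAT and MEF2, and through the ERK kinases with SRF and its ELK partners. The EGR proteins are zinc-finger factors that bind GC-rich promoters and are held in check by the NAB corepressors, and the NR4A proteins are orphan nuclear receptors that work without a known hormone ligand. Arc and Npas4 are best known from neurons, Arc as a capsid-like synaptic protein and Npas4 as a calcium-induced basic helix-loop-helix PAS factor that beta cells also make, and Ier2 is a small nuclear protein of the same induced class.

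In units of 1000000 reads, the reads assigned to genes ranged from 13.1 to 15.9 in sh-ctrl and from 14.4 to 15.6 in sh-Il22ra1. The unit of level is the CPM, a gene's reads per 1000000 reads in genes, with library sizes scaled by TMM. The targeted gene itself had few reads: Il22ra1 had 7 to 20 reads in the sh-ctrl libraries and 1 to 4 in the sh-Il22ra1 libraries, or 0.831 ± 0.256 and 0.164 ± 0.0873 CPM (SD, n = 6 each; two-sided exact permutation p = 0.00216, the smallest that 6 against 6 allow). Cyb5r3, the reductase named in the series title, lay at 524 to 649 CPM in sh-ctrl and at 73.8 to 89.2 CPM in sh-Il22ra1. Beta-cell markers summed to between 71000 and 108000 CPM in sh-ctrl and between 63600 and 72800 CPM in sh-Il22ra1. Markers of acinar and duct cells summed to no more than 2.47 CPM with Prss2 at 0, and those of endothelium summed to 3.51 to 7.77 and 5.14 to 7.54 CPM. Several other marker sums moved with the group: leukocyte markers from 18.9 to 27.8 CPM down to 6.04 to 10 CPM, most of it Cd68 with Ptprc at no more than 0.274 CPM, fibroblast markers from 3.09 to 6.34 down to 1.04 to 2.13 CPM, other islet hormones from 243 to 295 down to 145 to 158 CPM, and neuronal markers from 245 to 284 down to 172 to 206 CPM. Reads that did not align also differed, at 12.8% to 17.3% in sh-ctrl and 8.71% to 11.8% in sh-Il22ra1. The part of these differences in the results was not tested. The sh-ctrl libraries 1 and 4 stood apart from the other 4 on the second principal component, at 18.2 and 31.9 against -17.7 to -0.13, and several results that move without them are given both ways.

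Of the 9 tested genes, 6 were lower in sh-Il22ra1 (Egr1, Egr2, Egr4, Nr4a1, Nr4a3 and Arc), 2 were higher (Ier2 and Npas4) and Nr4a2 did not pass (edgeR quasi-likelihood test, Benjamini-Hochberg adjusted p below 0.05 over all tested genes). Both directions were common across the transcriptome, since 26.5% of all tested genes were called lower and 25.4% higher. The share called lower among the 9 was 66.7% and the share called higher 22.2%. Falls of more than 2-fold, found in 3.66% of all tested genes, were seen in the 3 tested EGR genes. In 5 of the 9 every sh-Il22ra1 library lay below every sh-ctrl library, against 14.6% of all tested genes, and in none did every sh-Il22ra1 library lie above, against 13.5%. The median log2 fold change of the 9 was -0.70, and that of all tested genes -0.004. These counts describe the genes that passed the filter on low counts. The 10 genes were chosen with earlier results of these data known, so the shares are descriptive only. Egr2 and Egr4 passed it through the sh-ctrl libraries: all 6 of those reached its level of 0.671 CPM, but only 4 sh-Il22ra1 libraries did for Egr2 and 1 for Egr4. Of the other 7, 4 were called lower and 2 higher, 1 (Egr1) fell by more than 2-fold, and in 3 (Egr1, Nr4a1 and Arc) every sh-Il22ra1 library lay below every sh-ctrl library.

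**Figure D1:**
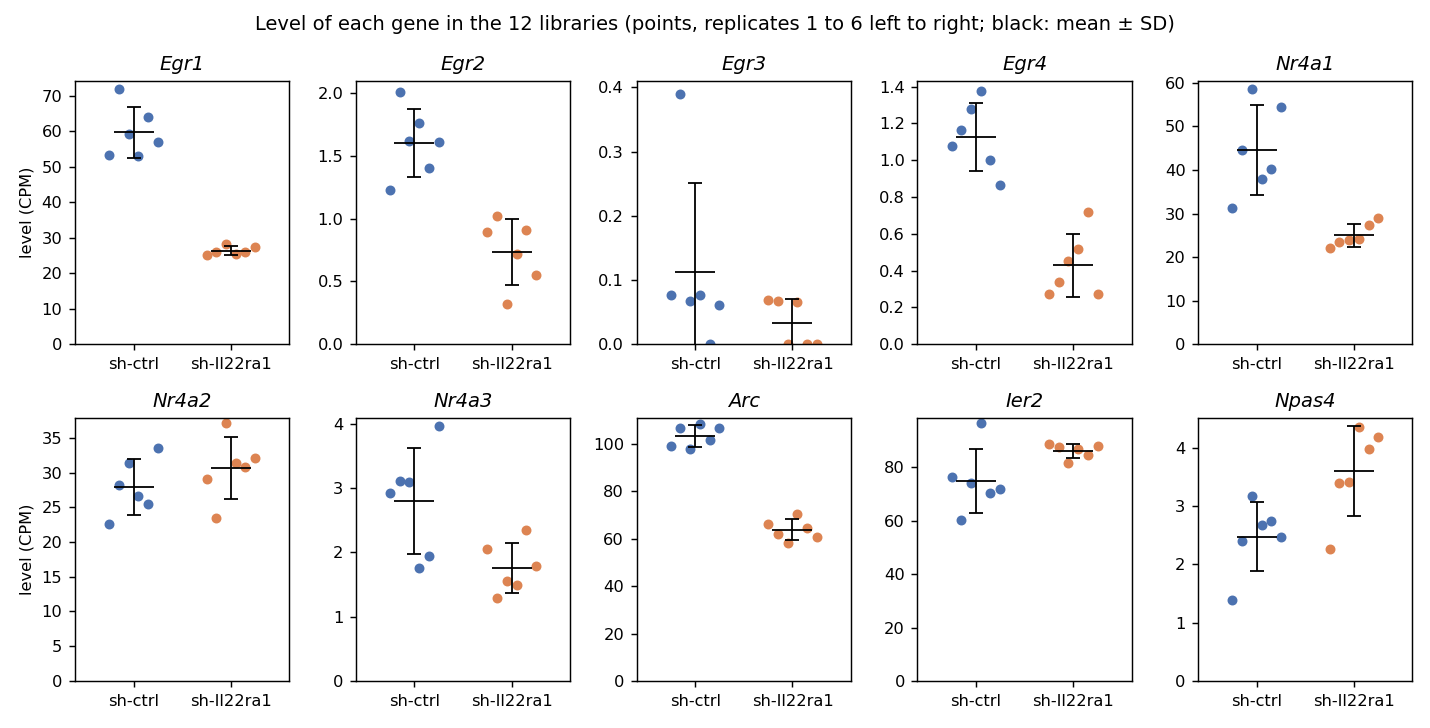
Level of each of the 10 genes in CPM (vertical axes, linear and starting at 0) in the 6 sh-ctrl (blue) and 6 sh-Il22ra1 (orange) libraries; each point is a library, and black marks give the mean ± SD (cut at 0 for Egr3). Egr1, Egr2, Egr4, Nr4a1 and Arc separate without overlap, Nr4a2 and Nr4a3 overlap, and 5 of 6 sh-Il22ra1 libraries lie above all sh-ctrl libraries for Npas4.

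Per kilobase of exon the sh-ctrl levels ran from Ier2 at 49.2 ± 7.92 CPM per kb and Arc at 33.8 ± 1.46 (SD, n = 6) down to Egr1 at 13.3 ± 1.6, Nr4a1 at 12.7 ± 2.95 and Nr4a2 at 6.89 ± 0.989. The last 5 were far lower: Npas4 at 0.598, Egr4 at 0.525, Egr2 at 0.472, Nr4a3 at 0.467 and Egr3 at 0.0254 CPM per kb. Egr1 and Nr4a1 were closer to each other than their SDs, as were Npas4, Egr4, Egr2 and Nr4a3, so the order within those sets was not resolved. In sh-Il22ra1 Ier2 at 56.7 ± 1.69 and Arc at 20.8 ± 1.44 CPM per kb were again highest, and the 3 genes after them stood in the reverse order, with Nr4a2 at 7.56 ± 1.09, Nr4a1 at 7.13 ± 0.746 and Egr1 at 5.87 ± 0.278 CPM per kb. Nr4a2 and Nr4a1 were within their SDs there, and Egr1 lay below both.

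Egr1 is the most abundant EGR factor in these cells and links ERK activity to target promoters. Its level in the sh-ctrl libraries was lowest at 53.2, had a median of 58.2 and was highest at 71.8 CPM, and in the sh-Il22ra1 libraries it was lowest at 25.1, had a median of 26.0 and was highest at 28.3 CPM. The highest sh-Il22ra1 library was thus well under the lowest sh-ctrl library. The mean went from 59.8 ± 7.17 to 26.3 ± 1.25 CPM (SD, n = 6 each), a log2 fold change of -1.18 (SE 0.0771, edgeR adjusted p = 6.79e-10) or 2.27-fold lower. In a bulk sample fewer cells making a transcript and less of it per cell cannot be told apart, here or for any gene below. The spread of Egr1 among the sh-ctrl libraries, with a coefficient of variation of 12.0%, exceeded the 3.38% that counting alone gives at its depth, and in sh-Il22ra1 it was 4.73% against 5.03%.

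Egr2 and Egr4, the early growth response genes known from nerve myelination and from neurons and germ cells, were rare transcripts that also fell. Egr2 had 16 to 31 reads per sh-ctrl library and 5 to 15 per sh-Il22ra1 library, or a lowest, median and highest level of 1.23, 1.61 and 2.01 CPM against 0.322, 0.803 and 1.02 CPM. Its mean of 1.6 ± 0.271 CPM went to 0.734 ± 0.261 CPM (SD, n = 6 each), a log2 fold change of -1.13 (SE 0.244, edgeR adjusted p = 0.00082). The groups did not overlap, although counting alone gives a coefficient of variation of 20.6% in sh-ctrl and 30.2% in sh-Il22ra1 at this depth, against 16.9% and 35.6% measured. Egr4 had 14 to 19 reads against 4 to 11, or 0.866, 1.12 and 1.38 CPM against 0.274, 0.395 and 0.717 CPM at the lowest, the median and the highest. It too separated without overlap and went from 1.13 ± 0.186 to 0.429 ± 0.172 CPM (log2 fold change -1.36, SE 0.268, edgeR adjusted p = 0.000352).

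Egr3, a target of NFAT in lymphocytes, was barely detected. The sh-ctrl libraries held 10 reads of it in all, 6 of them in replicate 2, and the sh-Il22ra1 libraries held 3, with 3 libraries at 0. At 0.112 ± 0.139 and 0.0336 ± 0.0368 CPM (SD, n = 6 each) a difference was not detectable at this depth (two-sided exact permutation p = 0.123). In edgeR without the low-count filter its log2 fold change was -1.55 (SE 0.895, adjusted p = 0.191).

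As a family the EGR genes summed to 14.4 ± 1.66 CPM per kb in sh-ctrl and 6.30 ± 0.225 CPM per kb in sh-Il22ra1 (SD, n = 6 each). Egr1 made up 92.8% of that sum in sh-ctrl and 93.3% in sh-Il22ra1, so the family total followed it. The log2 ratio of Egr1 to Egr2 differed by -0.01 between the groups (SE 0.277, two-sided exact permutation p = 0.981), so a difference of moderate size between their falls was not detectable.

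One Egr2 start site is shown because its window carries motifs of both the CREB and the SRF routes. It covers GRCm38.p6 chr10:67537619-67537918 on the plus strand, from 250 bases before to 50 bases after 1 of the 5 Egr2 starts in RefSeq, and lies inside the span that GENCODE gives the gene, chr10:67535475-67542188. Capitals mark TGACG, the core of the cAMP response element that CREB binds, on either strand (read as CGTCA where it lies on the other strand), and the CArG box bound by SRF.
Egr2: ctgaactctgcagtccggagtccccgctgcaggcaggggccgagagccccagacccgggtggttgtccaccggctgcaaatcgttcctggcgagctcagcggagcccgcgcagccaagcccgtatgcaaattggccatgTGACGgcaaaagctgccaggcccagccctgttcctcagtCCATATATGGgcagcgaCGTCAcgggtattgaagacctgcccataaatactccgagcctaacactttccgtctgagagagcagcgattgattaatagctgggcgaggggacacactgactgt
The window holds TGACG 2 times, at -111 and -55 from the first transcribed base, and 1 CArG box at -72, with no overlap between them. Of the other Egr2 windows, chr10:67535249-67535548 holds neither motif and chr10:67537316-67537615 a CArG box without TGACG. The rest overlap the window shown and repeat its sites. Of 32841 mouse promoter windows of the same length, 20.8% hold TGACG at least once, 5.02% at least 2 times and 1.63% hold a CArG box. The Egr2 window was chosen for its motifs, so these shares are background only. The RefSeq table gave windows for 6 of the 10 genes and none for Egr1, Egr3, Arc and Ier2. The Egr4 sequence is not shown. A motif match describes the sequence and is no evidence of binding in these cells.

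The NR4A receptors did not change alike. Nr4a1 (also NUR77), which calcium entry induces, was the most variable abundant member in sh-ctrl. Replicates 1 to 6 of sh-ctrl gave 31.3, 44.7, 58.6, 37.9, 40.2 and 54.5 CPM, and those of sh-Il22ra1 gave 22.2, 23.4, 23.9, 24.2, 27.3 and 29.1 CPM. The groups did not overlap, but sh-ctrl replicate 1 came within a few CPM of sh-Il22ra1 replicate 6. The mean of 44.5 ± 10.3 CPM went to 25 ± 2.62 CPM (SD, n = 6 each), a log2 fold change of -0.83 (SE 0.125, edgeR adjusted p = 2.06e-05). The coefficient of variation was 23.2% in sh-ctrl, against 3.90% from counting alone, and 10.5% in sh-Il22ra1. Without sh-ctrl replicates 1 and 4 together the log2 fold change was -1.0.

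Nr4a2 (NURR1), the member needed for dopamine neurons, was the second NR4A transcript per kilobase in sh-ctrl and did not pass the test. Its sh-ctrl replicates 1 to 6 gave 22.5, 28.3, 31.4, 26.6, 25.4 and 33.5 CPM, and its sh-Il22ra1 replicates gave 29.0, 23.5, 37.2, 31.4, 30.8 and 32.2 CPM. These ranges overlap almost throughout. The means were 28.0 ± 4.01 and 30.7 ± 4.44 CPM (log2 fold change 0.13, SE 0.105, 95% interval -0.09 to 0.35, edgeR adjusted p = 0.309).

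Nr4a3 (NOR1), a rare transcript here with 23 to 64 reads per sh-ctrl library and 19 to 36 per sh-Il22ra1 library, fell. Its lowest, median and highest levels were 1.76, 3.01 and 3.96 CPM in sh-ctrl and 1.29, 1.67 and 2.35 CPM in sh-Il22ra1. The groups overlapped: sh-ctrl replicates 4 and 5, at 1.76 and 1.94 CPM, lay among the sh-Il22ra1 libraries, of which 3 were below every sh-ctrl library. The mean went from 2.80 ± 0.821 to 1.75 ± 0.392 CPM (SD, n = 6 each), a log2 fold change of -0.68 (SE 0.213, edgeR adjusted p = 0.0121).

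The change of Nr4a1 relative to Nr4a2 can be read within each library, where library scaling cancels. The log2 ratio of Nr4a1 to Nr4a2 reads, not corrected for gene length, lay between 0.47 and 0.90 in the sh-ctrl libraries and between -0.64 and -0.01 in the sh-Il22ra1 libraries, so the groups did not overlap. The read ratio averaged 1.57 in sh-ctrl and 0.82 in sh-Il22ra1, a difference of -0.94 on the log2 scale (SE 0.110, two-sided exact permutation p = 0.00216, adjusted p = 0.00361 over 5 ratios tested). Summed per kilobase, the family went from 20 ± 3.98 to 15.0 ± 1.49 CPM per kb (SD, n = 6 each). Nr4a1 supplied 63.0% ± 2.46 of it in sh-ctrl and 47.7% ± 3.78 in sh-Il22ra1, Nr4a2 34.7% ± 2.29 and 50.3% ± 3.83, and Nr4a3 2.34% ± 0.611 and 1.96% ± 0.415.

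**Figure D2:**
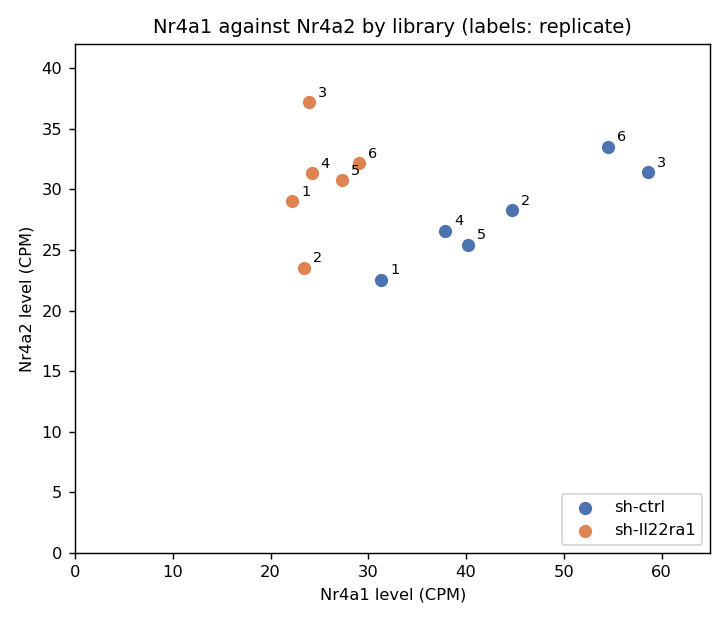
Nr4a2 level (vertical axis, CPM) against Nr4a1 level (horizontal axis, CPM) in each library, numbered by replicate; blue is sh-ctrl and orange sh-Il22ra1. The sh-ctrl libraries climb along a line from 31.3 to 58.6 CPM of Nr4a1, and the sh-Il22ra1 libraries stand in a column at 22.2 to 29.1 CPM of Nr4a1 over a similar range of Nr4a2.

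Among the sh-ctrl libraries Nr4a1 and Nr4a2 varied together, with Pearson's r = 0.955 (exact permutation p = 0.00833, n = 6) and Spearman's rho = 0.886 (exact permutation p = 0.0333), and r was 0.952 without the 2 libraries farthest from the Nr4a1 median. Among the sh-Il22ra1 libraries r was 0.287 (exact permutation p = 0.597, n = 6). Over the 20 relations computed, 10 pairs of abundant members in each group, the smallest Benjamini-Hochberg adjusted p was 0.167, so none passed, and the difference between the groups' correlations was not tested.

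Promoter windows of the 3 NR4A genes are shown because all carry the same number of TGACG cores. Each spans 250 bases before to 50 bases after a RefSeq start and is written along the gene's own strand, with TGACG or its reverse complement CGTCA in capitals. The windows are GRCm38.p6 chr15:101266596-101266895 on the plus strand for Nr4a1, chr2:57123954-57124253 on the minus strand for Nr4a2 and chr4:48045055-48045354 on the plus strand for Nr4a3. The GENCODE genes span chr15:101254269-101274795, chr2:57106830-57124003 and chr4:48045153-48086447, so the Nr4a1 start shown lies inside its gene and the other windows lie at or near the gene's start.
Nr4a1: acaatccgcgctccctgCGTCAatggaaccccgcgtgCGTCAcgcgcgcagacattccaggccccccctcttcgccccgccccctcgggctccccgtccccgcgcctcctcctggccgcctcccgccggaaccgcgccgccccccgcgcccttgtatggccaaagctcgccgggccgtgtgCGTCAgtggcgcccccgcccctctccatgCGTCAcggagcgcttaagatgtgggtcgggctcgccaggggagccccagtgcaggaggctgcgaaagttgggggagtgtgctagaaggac
Nr4a2: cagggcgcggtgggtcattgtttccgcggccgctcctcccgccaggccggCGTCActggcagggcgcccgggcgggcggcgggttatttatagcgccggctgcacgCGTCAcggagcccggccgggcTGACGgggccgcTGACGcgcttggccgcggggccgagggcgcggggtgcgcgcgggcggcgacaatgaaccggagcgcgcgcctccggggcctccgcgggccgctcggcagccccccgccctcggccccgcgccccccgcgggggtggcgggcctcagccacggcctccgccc
Nr4a3: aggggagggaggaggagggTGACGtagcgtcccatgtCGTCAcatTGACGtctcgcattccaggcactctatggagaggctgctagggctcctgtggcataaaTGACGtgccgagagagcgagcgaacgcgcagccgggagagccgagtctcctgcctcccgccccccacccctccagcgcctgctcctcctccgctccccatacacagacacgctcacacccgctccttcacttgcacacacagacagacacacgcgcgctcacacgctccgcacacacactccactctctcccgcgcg
Each window holds the core 4 times, which 0.231% of the 32841 promoter windows reach. From the first transcribed base the cores begin at -233, -213, -69 and -40 in Nr4a1, at -200, -144, -123 and -111 in Nr4a2, and at -231, -213, -205 and -147 in Nr4a3. None of the 3 windows holds the full palindrome TGACGTCA, found in 1.79% of all windows, or a CArG box.

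Arc, whose protein forms capsid-like shells that carry messenger RNA between neurons, was the steadiest of the 10 genes across the sh-ctrl libraries. It ran from 97.6 to 108.5 CPM with a median of 104.0 in sh-ctrl, and from 58.1 to 70.5 CPM with a median of 63.3 in sh-Il22ra1. The gap between the groups was wider than the range within either. The mean went from 103 ± 4.48 to 63.7 ± 4.41 CPM (SD, n = 6 each), a log2 fold change of -0.70 (SE 0.0586, edgeR adjusted p = 1.88e-08). Arc has 3 exons at GRCm38 chr15:74669083-74672570 on the minus strand, and none of its exon bases, nor those of the other 9 genes, overlap another annotated gene.

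Ier2 moved the other way by a small amount. Its sh-ctrl libraries gave 60.2 CPM at the lowest, a median of 73.0 and 96.8 CPM at the highest, and its sh-Il22ra1 libraries 81.8, 87.2 and 88.8 CPM. Of the sh-ctrl libraries 5 lay below all sh-Il22ra1 libraries, and replicate 4 lay above them all. The mean went from 74.9 ± 12.1 to 86.3 ± 2.57 CPM (SD, n = 6 each), a log2 fold change of 0.20 (SE 0.0829, edgeR adjusted p = 0.0467). The call did not survive the removal of any 1 library other than sh-ctrl replicate 4 (edgeR adjusted p up to 0.108), and without replicate 4 the log2 fold change was 0.28 (edgeR adjusted p = 0.000674). Without sh-ctrl replicates 1 and 4 together it was 0.30 (edgeR adjusted p = 9.93e-05). The spread was 16.1% in sh-ctrl and 2.98% in sh-Il22ra1, against 3.04% and 2.78% from counting alone.

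Npas4 was higher in sh-Il22ra1. It had 18 to 47 reads per sh-ctrl library and 33 to 67 per sh-Il22ra1 library, at a lowest, median and highest of 1.39, 2.57 and 3.16 CPM against 2.26, 3.69 and 4.36 CPM. Of the sh-Il22ra1 libraries 5 lay above all sh-ctrl libraries, and replicate 1 lay among them at 2.26 CPM. The mean went from 2.47 ± 0.596 to 3.60 ± 0.765 CPM (SD, n = 6 each), a log2 fold change of 0.53 (SE 0.189, edgeR adjusted p = 0.0241). The call was lost without sh-Il22ra1 replicate 4 (adjusted p = 0.0588), without sh-Il22ra1 replicate 6 (0.0623) and without sh-ctrl replicates 1 and 4 together (0.40, adjusted p = 0.0646), with the same direction each time. Its promoter window, GRCm38.p6 chr19:4989922-4990221 on the minus strand, is shown to set a gene that rose beside the NR4A windows.
Npas4: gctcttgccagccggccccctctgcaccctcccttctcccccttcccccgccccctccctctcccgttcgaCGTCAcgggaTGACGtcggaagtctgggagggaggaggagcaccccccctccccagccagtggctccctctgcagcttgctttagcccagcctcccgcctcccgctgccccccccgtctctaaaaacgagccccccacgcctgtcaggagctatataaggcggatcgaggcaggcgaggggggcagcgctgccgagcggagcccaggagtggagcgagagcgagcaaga
It holds TGACG 2 times, in capitals on either strand, at -179 and -169. The window of Egr4, a gene that fell, also holds TGACG 2 times, at -177 and -109. Any relation between the number of cores and the direction of change was not tested.

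**Figure D3:**
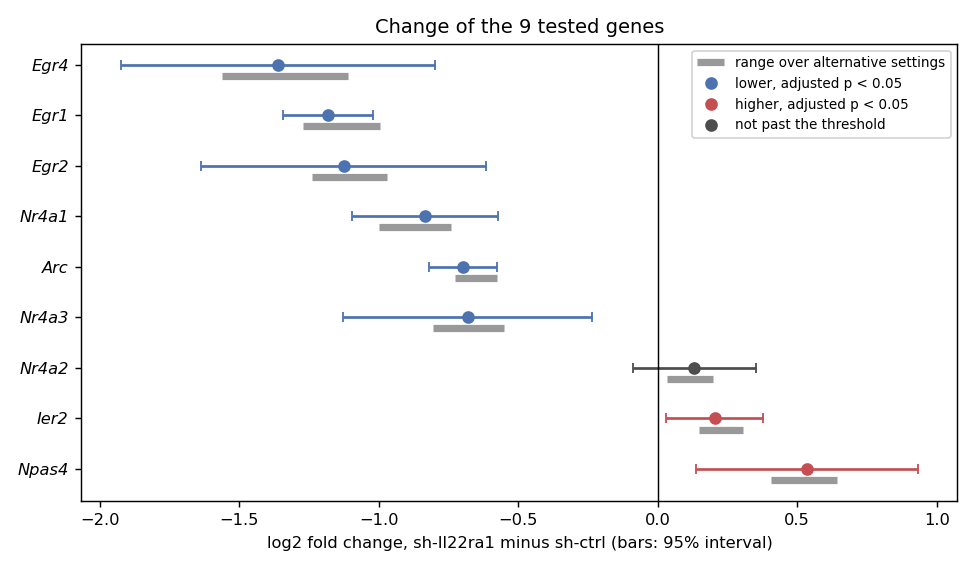
Log2 fold change of the 9 tested genes (horizontal axis, sh-Il22ra1 minus sh-ctrl); points and thin bars are the edgeR estimate with its 95% interval, and gray bars span the values under 22 alternative settings (21 for Egr4). The bars of Egr4, Egr1, Egr2, Nr4a1, Arc and Nr4a3 stay below 0, that of Nr4a2 runs from 0.03 to 0.20, and those of Ier2 and Npas4 stay above 0.

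The falls differed in size between genes. Egr1 fell more than Arc, with a difference in log2 ratio of -0.48 (SE 0.0968), and moved apart from Ier2 by -1.39 (SE 0.158), both at a two-sided exact permutation p = 0.00216 and an adjusted p = 0.00361 over the 5 ratios. Relative to Nr4a1 the Egr1 ratio differed by -0.37 (SE 0.145, two-sided exact permutation p = 0.0433), which after adjustment over the 5 ratios was 0.0541 and did not pass.

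Each tested gene was set beside the 10624 tested genes that averaged 5 CPM or more, by the correlation of their log2 levels over the 12 libraries after the group means had been removed. These correlations describe 12 libraries that share differences in depth and makeup, and the top of so many is high by selection. Nearest to Nr4a1 was Sik1, the salt-inducible kinase whose own gene CREB drives, with r = 0.965, followed by Rnf41 (0.957). Sik1 also fell, from 39.1 ± 8.94 to 20.5 ± 1.81 CPM (SD, n = 6 each), while Rnf41 rose (log2 fold change 0.47, edgeR adjusted p = 6.79e-06). Nearest to Nr4a2 were Rgs4 (r = 0.927), Ddx11 (0.926) and Sema4b (0.916), and to Egr1 Heca (0.917), Cox15 (0.908) and Pacsin2 (0.870). Ier2 had Setd6 (0.986), Batf3 (0.980) and Ptms (0.971), Arc had Tapbpl (0.889), Inpp5a (0.883) and Ubtd1 (0.786), and Npas4 had Tmem44 (0.905), Th (0.880) and Pdyn (0.875). For the Ier2 neighbours Spearman's rho was lower, at 0.909, 0.825 and 0.853. Ier2 was highest in sh-ctrl replicate 4, at 96.8 CPM, and the part of that library in these values was not tested. For the rare genes the nearest were Nrf1, Fbxl14 and Zdhhc18 for Egr2 (0.874 to 0.913), Fbxw2, Sptlc2 and Fam26e for Egr4 (0.834 to 0.847) and Agtpbp1, Sim1 and Dhx32 for Nr4a3 (0.844 to 0.864).

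Of 41 other immediate-early genes tested, 11 rose, 15 fell and 15 did not pass, with a median log2 fold change of -0.08. The shares, 26.8% higher and 36.6% lower, stand beside 25.4% and 26.5% of all tested genes, and the share higher is near that background. Btg2, an antiproliferative factor, rose by 1.03 on the log2 scale (SE 0.0565, edgeR adjusted p = 7.05e-11), Tob1 of the same family by 0.83, and Junb, an AP-1 subunit, by 0.73. Midn, which carries proteins to the proteasome, fell by 0.82. Junb shares 7.52% of its exon bases with Prdx2 on the other strand, and the strand setting of the counting is not given in the sources used here.

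Upstream on the ERK route, 4 of 17 tested genes rose, 5 fell and 8 did not pass (median 0.08). These shares, 23.5% and 29.4%, are near those of all tested genes, and with length and GC offsets 7 were called higher. Srf, the factor that binds CArG boxes, fell without overlap from 91.2 ± 3.81 to 45.1 ± 4.03 CPM (log2 fold change -1.02, SE 0.0652, edgeR adjusted p = 5.86e-10). Braf, which starts the kinase cascade, fell by 1.02 on the log2 scale (SE 0.129). Rps6ka4 (MSK2), a kinase of CREB and histone H3, fell by 0.38, with 19.8% of its exon bases shared with other annotated genes, and by 0.23 with length and GC offsets. Of 12 tested feedback inhibitors of ERK, 2 fell, Spry4 (-1.14) and Spry2 (-0.42), and 10 did not pass (median -0.18). The share lower, 16.7%, is below the 26.5% of all tested genes, and the share higher was 0% against 25.4%. Without sh-ctrl replicate 4 the number that fell was 8, without sh-ctrl replicates 1 and 4 together it was 6, and with length and GC offsets 2 were called higher. Over all tested genes, 3970 were lower without replicate 4 and 4146 without both, against 3472 with every library.

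On the calcium and CREB route, 2 of 21 tested genes rose, 9 fell and 10 did not pass (median -0.23), or 9.52% higher and 42.9% lower. Of all tested genes, 25.4% were called higher and 26.5% lower. All 3 CRTC coactivators of CREB fell: Crtc2 from 70.9 ± 4.26 to 39.0 ± 2.15 CPM (log2 fold change -0.86, SE 0.0614, edgeR adjusted p = 2.08e-09), Crtc3 by 0.65 (0.43 with length and GC offsets) and Crtc1 by 0.51. The calmodulin kinase genes Camkk1 and Camk2b fell by 0.85 and 0.41. On the calcineurin route, 2 of 15 rose, 9 fell and 4 did not pass (median -0.28), or 13.3% higher and 60.0% lower. Nfatc3 fell from 50.7 ± 9.14 to 16.0 ± 1.66 CPM (log2 fold change -1.66, SE 0.110, edgeR adjusted p = 8.49e-10) and Mef2d from 80.4 ± 18.2 to 33.5 ± 3.46 CPM (-1.26, SE 0.124), both without overlap between the groups; 8.87% of the Mef2d exon bases lie opposite another gene. Nfatc4 fell by 1.72, from 1.35 to 0.400 CPM, the latter under the filter's 0.671 CPM. Ppp3r1, the regulatory subunit of calcineurin, rose by 0.38 and shares 14.3% of its exon bases with Wdr92.

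Of 13 tested genes of calcium entry and the ATP-sensitive potassium channel, 1 rose, 7 fell and 5 did not pass (median -0.32), or 7.69% higher and 53.8% lower, and with length and GC offsets 4 were called higher. Without these offsets, 25.4% of all tested genes were called higher and 26.5% lower. Cacnb3, a subunit of voltage-gated calcium channels, fell from 173 ± 5.58 to 94.0 ± 7.30 CPM (log2 fold change -0.88, SE 0.0581, edgeR adjusted p = 8.13e-10), Cacnb1 by 0.65 and the T-type pore Cacna1g by 0.71 (0.39 with length and GC offsets, edgeR adjusted p = 0.0251). Kcnj11, the pore of the potassium channel, fell by 0.66 while its partner Abcc8 rose by 0.25.

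Partners and corepressors of the EGR and NR4A proteins were lower in 4 of 6 tested cases and higher in 1 (median -0.26). These shares, 66.7% lower and 16.7% higher, rest on 6 genes and stand beside 26.5% and 25.4% of all tested genes. Leaving out each library gave 3 to 4 called lower. Nab2, an EGR corepressor that EGR factors themselves induce, fell from 65.9 ± 2.59 to 49.1 ± 3.04 CPM (log2 fold change -0.42, SE 0.0591, edgeR adjusted p = 9.48e-06), and Nab1 fell by 0.29. Of the retinoid receptors that pair with NR4A proteins, Rxra fell by 0.44 (0.23 with length and GC offsets) and Rxrb rose by 0.56. Nab2 shares 42.2% of its exon bases with Stat6, Nemp1 and Gm16229 on the other strand, so its change is uncertain. Of 18 tested genes of AU-rich mRNA decay, the route that clears many immediate-early transcripts, 3 rose, among them Cnot8 (0.53) and Pan2 (0.41), 3 fell, among them Hnrnpd (-0.46) and Dcp1a (-0.50), and 12 did not pass (median -0.05). The shares, 16.7% higher and 16.7% lower, are below the 25.4% and 26.5% of all tested genes. Without sh-ctrl replicates 1 and 4 together 3 were higher and 7 lower, and with length and GC offsets 6 were higher and 4 lower. Over all tested genes that removal gave 3781 higher and 4146 lower, against 3323 and 3472 with every library.

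**Figure D4:**
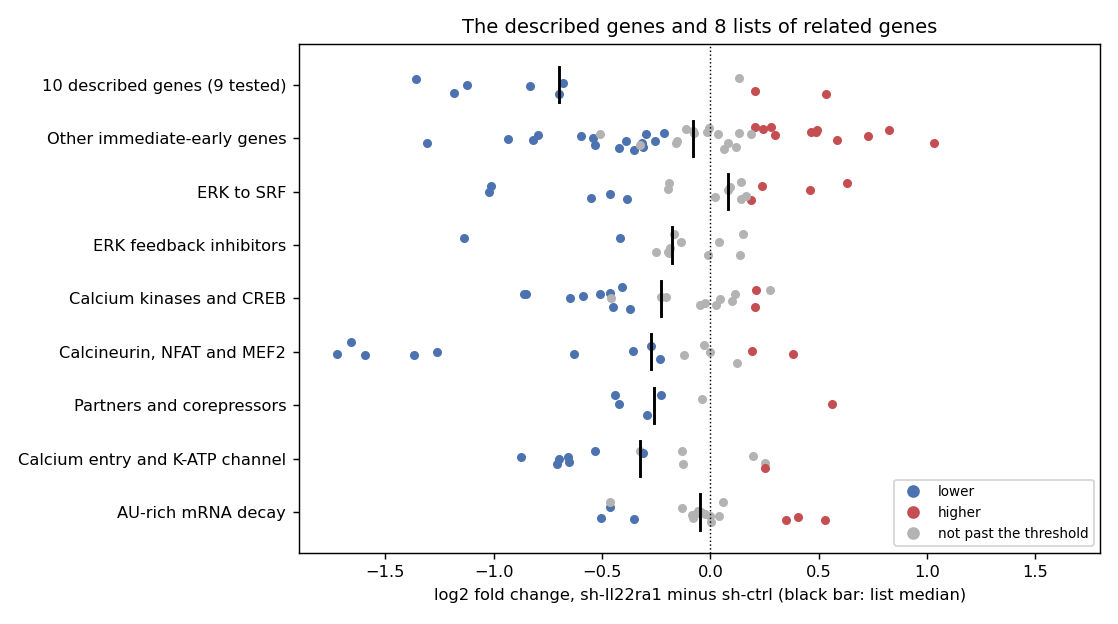
Log2 fold change (horizontal axis, sh-Il22ra1 minus sh-ctrl) of the 9 tested genes and of each tested gene in 8 lists of related genes; each point is a gene, blue called lower, red called higher and gray not past the threshold, and black bars are medians. The medians of the lists lie between -0.32 and 0.08, and that of the 9 genes at -0.70.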

How the data were processed

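Groups and replicate numbers came from the sample titles. In sh-Il22ra1 replicates 2 to 6 the treatment label ends its gene name in the replicate number; their titles decided the group. The deposited sample files hold whole-number read counts per gene symbol; per the submitters' processing notes, the authors used HISAT2 2.0.5 and HTSeq with mm10, while annotation and strand setting were not given in the sources used here. The deposited CPM table of the series was not used here. The 5 rows of reads not assigned to genes, 26.5% to 31.7% of reads in sh-ctrl and 23.5% to 26.8% in sh-Il22ra1, were left out.

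Counts were tested in R 4.3.3 with edgeR 4.0.16: filterByExpr (minimum count 10, minimum total 15), TMM scaling, and the quasi-likelihood test with group as the term, two-sided, with Benjamini-Hochberg adjustment over 13102 genes at 0.05. The SE is the log2 fold change divided by the square root of F. Egr3, Il22ra1 and the 5 log2 ratios (0.5 reads added) were compared by exact permutation over all 924 arrangements of 6 against 6. The script was tested on simulated data. Exons came from GENCODE M21 and promoter windows from RefSeq (GRCm38.p6); of the 24421 symbols, GENCODE held 23376 by symbol and 651 under a synonym, leaving 394 unmatched. Tables were made in Python 3.11.15 (scipy 1.17.1, pandas 2.3.3, numpy 2.4.6).

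The 10 genes and the lists were chosen with earlier results of these data known. Beside the 10, the rule names Il22ra1 and Cyb5r3, up to 4 called genes of smallest p in each list, and the 3 genes nearest each tested member; Crtc1 and Abcc8 were named after their values were seen, to complete their families, and some genes that the rule names are not reported here. Alternatives were RLE or upper-quartile scaling, TMM without Ins2, Iapp and Rn45s, DESeq2 1.42.0, limma-voom (limma 3.58.1), other filters, length and GC offsets, a replicate block, each library left out in turn, and sh-ctrl replicates 1 and 4 left out together.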

Additional observations from a re-analysis of the deposited data

Results flagged for a closer look

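Among 90 sets of 6 libraries examined, 4 held a library far from the other 5 by Dixon's criterion, which chance alone meets in about 1 set in 20. Egr3 in sh-ctrl replicate 2 stood at 0.389 CPM, against 0 to 0.0769 CPM in the other sh-ctrl libraries, and this is the library with 6 of the 10 reads. Cacna1g in sh-Il22ra1 replicate 1 stood at 4.25 CPM against 3.06 to 3.39 CPM, still below every sh-ctrl library. Camk2b in sh-Il22ra1 replicate 2 stood at 64.7 CPM against 52.0 to 56.7 CPM, and Nab2 in sh-Il22ra1 replicate 3 at 43.1 CPM against 49.4 to 51.6 CPM.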

How the results depend on the processing

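The 6 genes called lower, Egr1, Egr2, Egr4, Nr4a1, Nr4a3 and Arc, were called lower under every alternative that gave them a value (22 each, 21 for Egr4, which a mean of at least 1 CPM removes), and Nr4a2 under none (0.03 to 0.20, adjusted p from 0.106 to 0.784). Npas4 was called higher in 19 of 22 and Ier2 in 9 of 22, so the number of members called higher was 1 with TMM without Ins2, Iapp and Rn45s, 1 with a mean of at least 1 CPM, 1 without sh-ctrl replicates 1 and 4 together, and 0 to 2 when each library was left out. Without sh-ctrl replicates 1 and 4 together, 6 ERK feedback inhibitors and 7 AU-rich decay genes were called lower. The same removal gave 7 called lower from ERK to SRF, 12 on the calcium and CREB route and 9 in calcium entry. Calls rose over all genes as well, with 3781 higher and 4146 lower of 13255 tested. With every library kept, 3323 were higher and 3472 lower of 13102. With length and GC offsets the number called higher was 7 on the route from ERK to SRF, 2 among ERK feedback inhibitors, 4 in calcium entry and 6 in AU-rich decay, and over all genes 4313 higher and 3254 lower against 3323 and 3472 without them. Leaving out each library gave 3 to 4 called higher from ERK to SRF, 0 to 1 called higher and 2 to 8 called lower among ERK feedback inhibitors (8 without sh-ctrl replicate 4), 1 to 2 higher for calcium kinases and for calcineurin, 0 to 2 higher in calcium entry, and 3 higher and 3 to 5 lower in AU-rich decay. The Egr1 to Nr4a1 ratio was -0.28 (exact permutation p = 0.148) without sh-ctrl replicates 1 and 4 together and -0.31 to -0.46 when each library was left out (exact permutation p from 0.0152 to 0.0823). The Egr3 difference was -0.101 to -0.0229 CPM, and passed only without sh-ctrl replicate 5 (exact permutation p = 0.0195). Replicate numbers recur in both groups, and the labels do not say whether they pair the samples. Same-numbered libraries correlated at -0.0328 to 0.229 and 1 of 6 correlated best with its own number, which cannot decide it. With the replicate block, 3463 genes were higher and 3566 lower, 1 ERK feedback inhibitor was called higher, the Egr1 to Nr4a1 ratio was -0.37 (exact sign-flip permutation p = 0.0938), and no call among the 10 genes was lost. The causes of these shifts were not tested. With 4 to 31 reads per library, Egr2 and Egr4 are limited by counting error.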
